A study of Mus musculus with 2 samples.

Results

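Bmp2, Bmp6, Id1, Smad7, Hamp, Hfe, Tfr2, Tfrc, Trf and Slc40a1 carry the signal from bone morphogenetic protein (BMP) to liver iron control, or move iron itself, and were followed through nuclei of regenerating mouse liver. They were chosen by symbol, for their roles, and are 10 of the 27998 genes in the deposited tables. The assay was single-nucleus RNA sequencing from the 3' end in droplets, with a unique molecular identifier (UMI) on each molecule. Both libraries came from livers of 12-week-old C57BL/6 mice, taken 48 h after surgery in which part of the organ is cut away and the rest regrows (partial hepatectomy, PHx). One library was titled HKO and 1 WT, and the series text names Sox9HKO and Sox9f/f mice, the f/f mark standing for loxP-flanked alleles. The labels do not spell out HKO, name the Cre driver or say which part of Sox9 is deleted, and their genotype field holds the age. There was 1 library per group and therefore no replicate check and no test. Parentheses hold 95% intervals from the exact Poisson, conditional or binomial law, which cover counting error and leave out the spread between animals.

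In liver, BMP6 and BMP2 are made by sinusoidal endothelial cells and bind receptors on hepatocytes, whose SMAD proteins then switch on Hamp. Hamp encodes hepcidin, the hormone that makes cells withdraw ferroportin, the iron exporter encoded by Slc40a1, from their surface. Circulating iron travels on transferrin, encoded by Trf, and is taken up by transferrin receptor 1, encoded by Tfrc, while HFE and transferrin receptor 2 act as sensors of bound iron upstream of hepcidin.

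Part of this control is written in short sequences that frame the values given below. Iron-responsive elements are hairpins in messenger RNA that iron regulatory proteins bind when iron is scarce, protecting Tfrc messages and holding back translation of Slc40a1 and ferritin messages. A search of the annotated transcripts (GENCODE vM21, GRCm38) for a C bulge, 5 paired bases and the loop CAGTGN with its last base not G found 1 match in the 5′ UTR of Slc40a1 and 4 in the 3′ UTR of Tfrc. The ferritin chain genes Fth1 and Ftl1 had 1 each in the 5′ UTR, and 0.725% of 58797 protein-coding transcripts held a match. Each 30-base match is shown as DNA, 5′ to 3′ on the gene's strand, with the loop in capitals.
Slc40a1 (chr1:45925464-45925493, minus strand, exon 1 of 8): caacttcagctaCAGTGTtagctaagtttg
Tfrc, match 1 (chr16:32631219-32631248, plus strand, exon 19 of 19): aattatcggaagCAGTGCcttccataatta
Tfrc, match 2 (chr16:32631598-32631627): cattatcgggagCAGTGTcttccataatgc
Tfrc, match 3 (chr16:32631663-32631692): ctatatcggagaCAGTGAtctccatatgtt
Tfrc, match 4 (chr16:32631710-32631739): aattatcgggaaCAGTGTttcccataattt
Ftl1 (chr7:45459778-45459807, minus strand, exon 1 of 4): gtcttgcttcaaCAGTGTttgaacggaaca
Fth1 (chr19:9982732-9982761, plus strand, exon 1 of 4): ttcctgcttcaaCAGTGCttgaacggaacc

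For transcription, RefSeq promoter windows (GRCm38.p6, 250 bases before to 50 after a start) matched 5 of the 10 genes, Bmp6, Hamp, Hfe, Tfr2 and Tfrc, with 8 windows in all. GGCGCC, a core letter string of the BMP-responsive element, and TTCNNNGAA, the letter string that STAT factors bind, were searched. Both are palindromes, so either strand gives the same matches, and they do not overlap in Hamp. The Hamp window held GGCGCC at base -109 and TTCNNNGAA at base -97 from the start. Of 32851 windows, 11.9% held GGCGCC, 8.30% held TTCNNNGAA and 0.645% held both. GGCGCC also lay at base -89 of 1 of the 2 Tfrc windows, while the windows of Bmp6, Hfe and Tfr2 had neither string. The 150 bases before each start are shown to place these strings, which are in capitals; a match describes letters, not a bound site.
Hamp (chr7:30944030-30944179, minus strand): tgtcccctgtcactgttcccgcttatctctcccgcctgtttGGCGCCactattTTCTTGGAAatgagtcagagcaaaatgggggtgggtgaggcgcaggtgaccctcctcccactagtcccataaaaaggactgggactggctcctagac
Tfrc (chr16:32608746-32608895, plus strand): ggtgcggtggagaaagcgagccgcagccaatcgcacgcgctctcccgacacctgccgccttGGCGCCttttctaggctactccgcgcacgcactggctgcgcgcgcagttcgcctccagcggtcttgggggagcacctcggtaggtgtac

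After filtering, 14902 HKO and 14515 WT nuclei were clustered together and named from marker genes, giving 8681 HKO and 10933 WT hepatocyte-like, 2349 HKO and 1122 WT endothelial-like, 1779 HKO and 1060 WT macrophage-like, 1165 HKO and 642 WT stellate-like, and 289 HKO and 116 WT T/NK-like nuclei. Apart from the stellate-like and T/NK-like clusters, almost every large cluster held nuclei of 1 library, so a difference between libraries and one between cell states cannot be told apart. Levels are counts summed over the nuclei of a class and scaled to 1e6 (CPM), which are not corrected for gene length and so are compared between classes and libraries and not between genes. The libraries differed in depth and content: 3855 HKO and 286 WT nuclei had under 2000 UMIs, and the median mitochondrial share was 0.109% in HKO and 0.331% in WT. The 17 hepatocyte markers summed to 14788 CPM in HKO against 27769 CPM in WT hepatocyte-like nuclei. The targeted gene Sox9 was at 5.75 CPM in HKO against 11.4 CPM in WT hepatocyte-like nuclei, 0.504-fold (0.429 to 0.591), and a 3' tag may lie outside the deleted part. RNA of hepatocyte markers reached all other classes: the median marker stood in endothelial-like nuclei at 84.9% (HKO) and 92.9% (WT) of its level in hepatocyte-like nuclei, in macrophage-like nuclei at 84.2% in each library, and in stellate-like nuclei at 77.1% in HKO and 88.0% in WT. The part of free RNA in this was not tested.

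**Figure D1:**
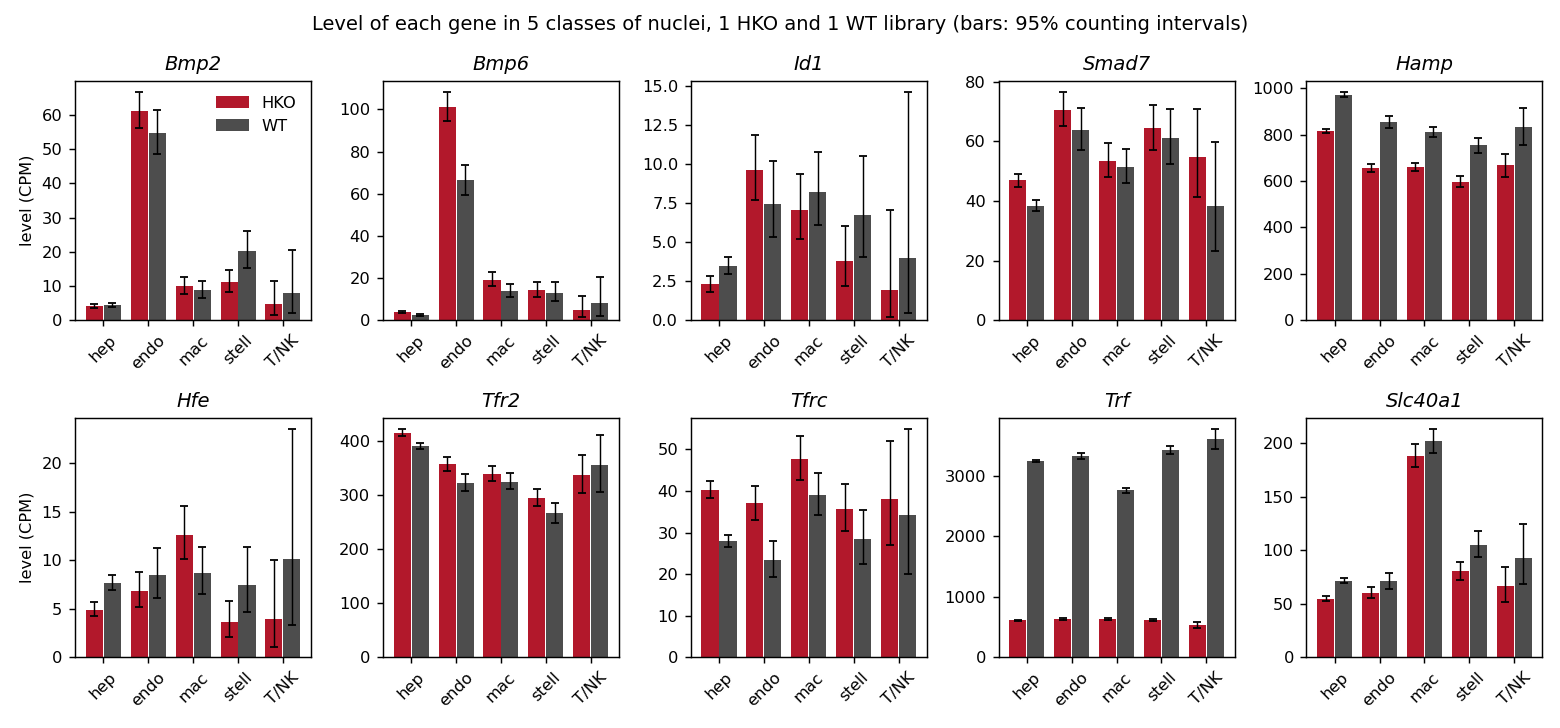
Level in CPM of each gene in hepatocyte-like (hep), endothelial-like (endo), macrophage-like (mac), stellate-like (stell) and T/NK-like nuclei, with the HKO library in red on the left and the WT library in grey on the right of each pair, and 95% counting intervals. Bmp2 and Bmp6 stand out in endothelial-like nuclei, Slc40a1 in macrophage-like nuclei, and Trf is lower in HKO than in WT in all 5 classes.

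The ligands were endothelial in both libraries. Bmp6 (ENSMUSG00000039004, chr13:38345107-38500302, plus strand), the ligand that tracks liver iron stores, was at 101 CPM in HKO against 66.4 CPM in WT endothelial-like nuclei, from 889 UMIs in HKO and 346 in WT. This was 25.6 times its level in HKO hepatocyte-like nuclei (3.94 CPM) and 26.5 times that in WT (2.50 CPM). Among the 5 classes compared, macrophage-like nuclei came next at 19.3 CPM in HKO against 13.8 CPM in WT, and stellate-like nuclei, whose interval overlapped theirs in both libraries, had 14.3 CPM in HKO against 13.1 CPM in WT. Bmp2 (ENSMUSG00000027358, chr2:133552159-133562885, plus strand), the other endothelial ligand, was at 61.2 CPM in HKO against 54.7 CPM in WT endothelial-like nuclei. That was 14.7 times its level in hepatocyte-like nuclei of HKO (4.17 CPM) and 12.1 times that of WT (4.53 CPM). Stellate-like nuclei held Bmp2 at 11.1 CPM in HKO against 20.2 CPM in WT, 0.551-fold (0.369 to 0.820), a direction that turned at matched mitochondrial share, with 38 WT nuclei. Both ligands were thus far above the share that hepatocyte transcripts reached outside hepatocytes. They were 2 of the 8 genes measured there to pass a log2 ratio of 1 over hepatocyte-like nuclei in both libraries. Among all genes, 4.75% of 8266 did. This count measured a gene by its mean level over both classes. Both ligands were too low to be measured in hepatocyte-like nuclei alone, so their endothelial-like level admitted them. At such low hepatocyte-like levels, any gene admitted in this way passes the ratio. The count is therefore no separate evidence that the ligands are endothelial. Bmp6 overlaps Txndc5 and 4930579J19Rik on the opposite strand, and the sources used here do not say whether counting used strand.

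Counted nucleus by nucleus, both ligands were again more frequent in endothelial-like than in hepatocyte-like nuclei. After each nucleus was thinned to 2000 UMIs, 15.9% of 1222 HKO endothelial-like nuclei held a Bmp6 UMI (13.9 to 18.0), against 13.0% of 1101 in WT (11.1 to 15.1). In hepatocyte-like nuclei the share was 0.755% in HKO and 0.587% in WT. For Bmp2 the endothelial-like share was 12.7% in HKO and 12.9% in WT, and the hepatocyte-like one 0.833% in HKO and 1.08% in WT. At 2000 UMIs the intervals of the 2 libraries overlapped for both ligands in endothelial-like nuclei. Thinning left out 1127 HKO and 21 WT endothelial-like nuclei as too shallow. At 1000 UMIs, which kept all 2349 HKO and 1122 WT endothelial-like nuclei, the Bmp6 share was 12.7% in HKO (11.4 to 14.1) against 7.84% in WT (6.34 to 9.57), without overlap. Without thinning, at a median of 2065 UMIs in HKO and 3265 in WT, Bmp6 was seen in 25.7% of HKO (23.9 to 27.5) and 21.3% of WT (18.9 to 23.8) endothelial-like nuclei, again without overlap, and Bmp2 in 18.6% of HKO and 20.5% of WT ones.

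Between the libraries, Bmp6 was 1.52-fold higher in HKO endothelial-like nuclei by summed counts (1.34 to 1.73), and Bmp2 1.12-fold (0.968 to 1.30), an interval that includes 1. Depth moved with both values, doublets were not removed, and their part in it was not tested. In HKO, Bmp6 was at 215 CPM in the 1127 endothelial-like nuclei under 2000 UMIs and at 73.0 CPM in the 1222 deeper ones, and Bmp2 at 119 CPM and 47.1 CPM. WT had 21 endothelial-like nuclei in the shallow range, where its deposited barcodes start only at 1968 UMIs, against 1181 in HKO. Among nuclei of 2000 to 6000 UMIs the log2 ratio of HKO over WT was 0.36 for Bmp6 and -0.02 for Bmp2, and with all nuclei of at least 2000 UMIs it was 0.17 for Bmp6 and -0.21 for Bmp2. Bmp6 kept its direction in all 10 alternatives, while Bmp2 turned in 4, scaling by median ratio or TMM among them. Of the 10, the larger pseudocount cannot turn a direction in any class. Adding an unnamed cluster with hepatocyte markers changes hepatocyte-like values only.

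**Figure D2:**
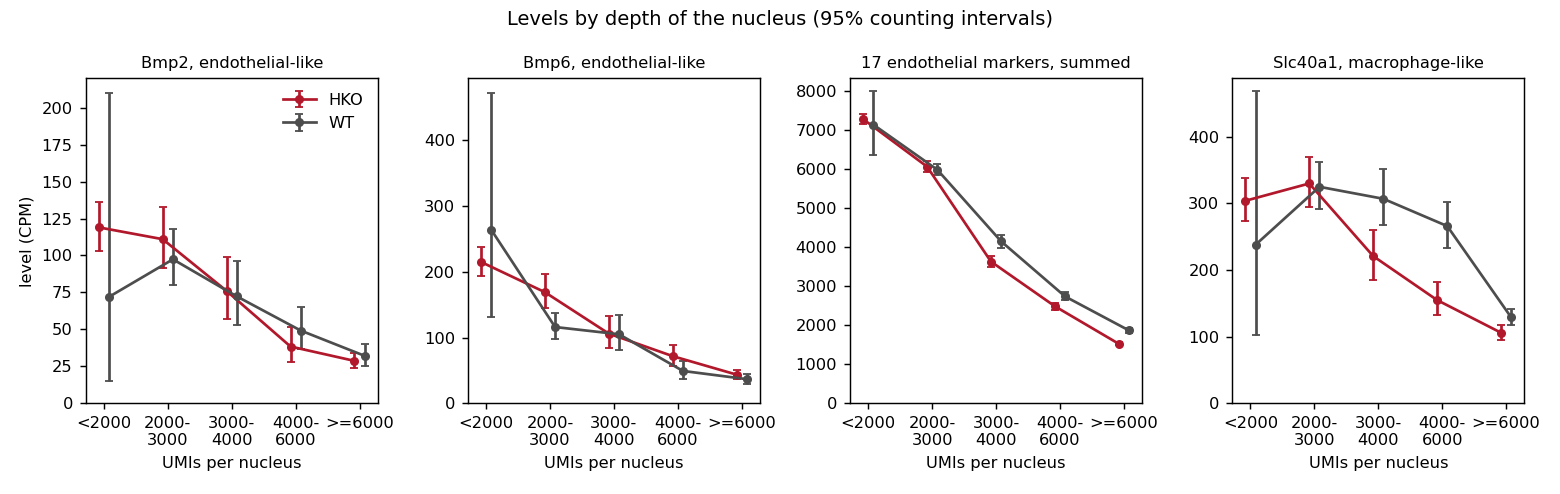
Level in CPM of Bmp2, Bmp6 and the 17 endothelial markers in endothelial-like nuclei and of Slc40a1 in macrophage-like nuclei, by UMIs per nucleus, in HKO (red) and WT (grey), with 95% counting intervals. In each panel the level at 6000 UMIs or more was below that at 2000 to 3000 UMIs in both libraries, and Bmp6 at 2000 to 3000 UMIs was 169 CPM in HKO against 116 CPM in WT.

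The markers that define endothelial nuclei followed the same course, summing to 7271 CPM in HKO nuclei under 2000 UMIs and 1522 CPM in those of at least 6000. In WT they summed to 5977 CPM at 2000 to 3000 UMIs and 1864 CPM at 6000 or more. Nuclei with at least 3 UMIs of a list of G2 and mitosis genes had less of both ligands when all depths were pooled. Bmp6 was at 50.5 CPM in 201 cycling and 116 CPM in 2148 other HKO endothelial-like nuclei, and at 50.1 CPM in 286 cycling and 76.3 CPM in 836 other WT nuclei. The cycling nuclei were deeper, with a median of 5572 UMIs against 1964 in HKO and 5269 against 2911 in WT. Between 2000 and 6000 UMIs the ratio of cycling over other nuclei was 1.21 in HKO (0.840 to 1.69) and 1.07 in WT (0.785 to 1.45) for Bmp6, and for Bmp2 1.21 in HKO (0.764 to 1.84) and 0.900 in WT (0.625 to 1.27). A lower ligand level in cycling endothelial nuclei was thus not detectable at like depth.

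Endothelial-like nuclei with a UMI of the central vein markers Rspo3, Wnt9b or Wnt2 numbered 350 in HKO and 220 in WT. Over all depths Bmp6 was at 68.2 CPM in them and 109 CPM in the others in HKO, 0.624-fold (0.511 to 0.757), and at 56.5 CPM and 68.7 CPM in WT, 0.823-fold, with an interval that includes 1. From 2000 to 6000 UMIs the ratio was 1.13 in HKO (0.825 to 1.52) and 0.918 in WT (0.645 to 1.28). Smad7, a BMP target, was higher in the central nuclei at that depth in WT, at 102 CPM against 65.7 CPM (1.56-fold, 1.12 to 2.15). In HKO it was at 76.6 CPM against 69.0 CPM, with an interval that includes 1 (0.737 to 1.63).

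The genes whose levels followed Bmp2 most closely over the 10 values of 5 classes in 2 libraries were Sema3f, Npr1 and Adgrf5 (Pearson r 0.991, 0.988 and 0.985), each over 10 times as high in endothelial-like as in hepatocyte-like nuclei of HKO. Those nearest to Bmp6 were Shank3, Plpp1 and Vamp5 (0.987, 0.985 and 0.984). These values share libraries and the hepatocyte RNA in each class.

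Of the targets, Hamp (ENSMUSG00000050440, chr7:30942368-30944032, minus strand) was at 815 CPM in HKO against 972 CPM in WT hepatocyte-like nuclei, 0.838-fold (0.826 to 0.851). Its promoter string pair is printed above. The same direction was seen in the endothelial-like (657 CPM in HKO, 853 CPM in WT), macrophage-like (660 CPM in HKO, 811 CPM in WT) and stellate-like sums (597 CPM in HKO against 753 CPM in WT), where Hamp stood at 73.2% to 87.7% of the hepatocyte-like level, like the hepatocyte markers. These sums are not independent of the hepatocyte-like one. Hamp was lower in HKO in all 4 classes under all 10 alternatives, by a log2 ratio between -0.58 and -0.22. At least 1 UMI occurred in 70.8% of HKO against 80.6% of WT hepatocyte-like nuclei thinned to 2000 UMIs, and in 85.2% of HKO against 92.4% of WT unthinned. Albumin, a hepatocyte transcript (Alb), was lower by more, at 2544 CPM in HKO against 6483 CPM in WT, 0.392-fold, so that Hamp was higher in HKO relative to Alb. Its near copy Hamp2 had 10 UMIs in HKO and 28 in WT hepatocyte-like nuclei.

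Along the lobule, the Hamp values depended on where the hepatocyte-like nuclei were split. In HKO it was at 854 CPM in the 2893 most pericentral and 702 CPM in the 2893 most periportal hepatocyte-like nuclei, 1.22-fold (1.18 to 1.25). In WT, with 3644 nuclei at each end, it was at 898 CPM and 912 CPM, 0.984-fold (0.961 to 1.01). The score ranked nuclei by zonation markers that hold none of the 10 genes. Glul, itself among the pericentral markers in the score, was 14.1-fold higher at the pericentral end in HKO and 9.11-fold in WT. Because it helps to set the ranking, Glul is no separate check of the split. Among the outermost 868 HKO nuclei at each end, Hamp was at 642 CPM in pericentral and 645 CPM in periportal nuclei, 0.996-fold (0.941 to 1.05). The outermost 1093 WT nuclei at each end had 636 CPM in pericentral and 830 CPM in periportal nuclei, 0.766-fold (0.731 to 0.802). No zonal direction is read from these values. Whether the zonal difference itself differs between livers was not tested.

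Smad7 (ENSMUSG00000025880), the inhibitory SMAD that BMP signals induce as feedback, was at 46.9 CPM in HKO against 38.4 CPM in WT hepatocyte-like nuclei, 1.22-fold (1.14 to 1.31), in the same direction under all 10 alternatives. In endothelial-like nuclei it was at 70.6 CPM in HKO against 63.9 CPM in WT, where the direction turned under median ratio and TMM scaling and in both depth ranges from 2000 UMIs. With the share that hepatocyte transcripts reach subtracted from it alone, this endothelial-like level was 0.658 times the hepatocyte-like one for HKO and 0.736 times for WT. The hepatocyte-like level was left uncorrected, so these values do not rank the classes for Smad7 in either direction. Id1 (ENSMUSG00000042745, chr2:152736251-152737410, plus strand), an inhibitor of basic helix-loop-helix factors and the classic immediate BMP target, was scarce. It was at 2.31 CPM in HKO against 3.46 CPM in WT hepatocyte-like nuclei (0.667-fold, 0.509 to 0.870), below the floor of 10 CPM used for counting genes. In endothelial-like nuclei Id1 was at 9.65 CPM in HKO against 7.48 CPM in WT, an interval of the ratio that includes 1 (0.873 to 1.94). In sign, the targets did not share a direction: Hamp and Id1 were lower in HKO hepatocyte-like nuclei and Smad7 higher. The shifts were small, with a log2 ratio of -0.25 for Hamp and 0.29 for Smad7, beside a median of 0.18 over all genes measured. Of those genes, 59.1% had a ratio larger in size than that of Hamp, and 54.2% than that of Smad7. No split among the targets is therefore read from these values.

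Of the iron sensors, Tfr2 (ENSMUSG00000029716, chr5:137569840-137587481, plus strand), the transferrin receptor largely of hepatocytes, was at 415 CPM in HKO against 390 CPM in WT hepatocyte-like nuclei, 1.06-fold (1.04 to 1.09), a direction that turned under median ratio and TMM scaling and at clustering resolution 1. Its level in macrophage-like nuclei was 81.7% (HKO) and 83.4% (WT) of that in hepatocyte-like nuclei, near that of hepatocyte markers. Per 100 Alb UMIs, Tfr2 came to 16.3 in HKO and 6.02 in WT hepatocyte-like nuclei. Hfe (ENSMUSG00000006611, chr13:23702034-23710854, minus strand), the class I-like protein mutated in hereditary haemochromatosis, was at 4.88 CPM in HKO against 7.67 CPM in WT hepatocyte-like nuclei (0.637-fold, 0.530 to 0.762). In macrophage-like nuclei the order was opposite, with 12.6 CPM in HKO against 8.70 CPM in WT (1.45-fold, 1.02 to 2.09). That value moved with depth: HKO had 23.8 CPM in 756 macrophage-like nuclei under 2000 UMIs and 10.3 CPM in 1023 deeper ones. WT had 17 such shallow nuclei. The macrophage-like log2 ratio of 0.52 was 0.28 at 2000 UMIs or more and 0.23 without cycling nuclei. In HKO the macrophage-like level of Hfe was 259% of the hepatocyte-like one (198 to 336), and in WT 113% (83.3 to 152).

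Tfrc (ENSMUSG00000022797, chr16:32608920-32632794, plus strand), whose 4 matches to the iron-responsive element pattern are printed above, was higher in HKO in each of the 4 large classes. It was at 40.3 CPM in HKO against 27.9 CPM in WT hepatocyte-like nuclei, 1.45-fold (1.34 to 1.56). In endothelial-like nuclei it was at 37.0 CPM in HKO against 23.4 CPM in WT, 1.58-fold (1.28 to 1.96). Macrophage-like nuclei had 47.8 CPM in HKO against 39.0 CPM in WT (1.22-fold, 1.03 to 1.45), and in stellate-like nuclei the interval includes 1 (35.7 CPM in HKO, 28.4 CPM in WT, 0.954 to 1.66). Endothelial-like Tfrc stood at 91.9% of the hepatocyte-like level for HKO and 84.0% for WT, the range of hepatocyte markers, so this class is not independent evidence. Macrophage-like Tfrc stood at 119% for HKO (105 to 134) and 140% for WT (122 to 161), above the 84.2% at which the median hepatocyte marker stood there in both libraries. Its level there moved with depth: HKO had 68.0 CPM in macrophage-like nuclei under 2000 UMIs and 43.6 CPM in deeper ones. The macrophage-like log2 ratio of Tfrc, 0.29, was 0.16 at 2000 UMIs or more and 0.10 without cycling nuclei. The direction held in all 4 classes under all 10 alternatives, with a log2 ratio between 0.07 and 0.94, and all 4 values lay above the median of all genes measured, which was 0.18 in hepatocyte-like, 0.16 in endothelial-like, 0.11 in macrophage-like and 0.15 in stellate-like nuclei. In WT, cycling hepatocyte-like nuclei had more Tfrc than others, 33.4 CPM against 26.0 CPM (1.29-fold, 1.14 to 1.45), and in HKO 41.9 CPM against 40.1 CPM (1.05-fold, 0.888 to 1.22).

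**Figure D3:**
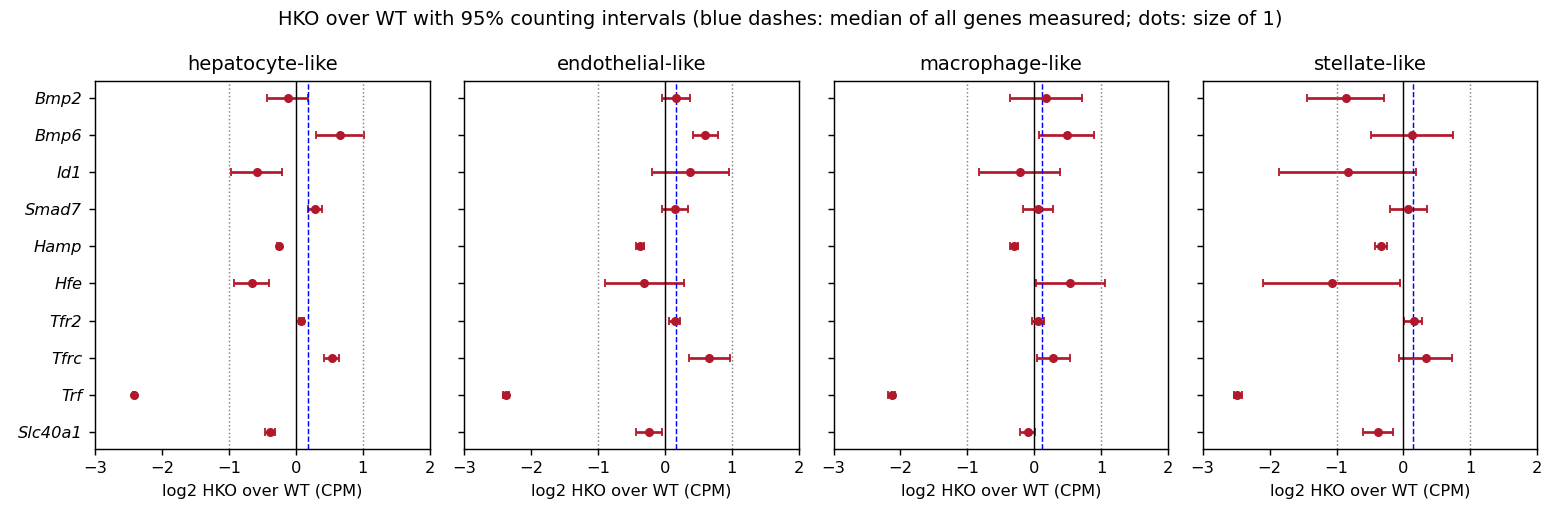
Log2 ratio of HKO over WT for each gene in 4 classes, with 95% counting intervals (red), the median of all genes measured (blue dashes) and the size of 1 used for counting (dotted). Trf lies beyond the size in all 4 classes, and Tfrc lies to the right of the median of all genes in each.

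Trf (ENSMUSG00000032554, chr9:103204001-103230444, minus strand), the plasma iron carrier that hepatocytes secrete, differed most. It was at 606 CPM in HKO against 3232 CPM in WT hepatocyte-like nuclei, 0.188-fold (0.185 to 0.190), or 5.33 times higher in WT. By log2 ratio it was the 39th lowest of 8413 genes. The other classes gave the same order, with 637 CPM in HKO against 3322 CPM in WT endothelial-like nuclei, 627 CPM in HKO against 2753 CPM in WT macrophage-like nuclei, 613 CPM in HKO against 3419 CPM in WT stellate-like nuclei, and 531 CPM in HKO against 3595 CPM in WT T/NK-like nuclei. At least 1 UMI occurred in 65.6% of HKO against 99.5% of WT hepatocyte-like nuclei thinned to 2000 UMIs, and in T/NK-like nuclei, which should lack the gene, in 60.7% of HKO against 100% of WT. Set against albumin, which was itself lower in HKO, Trf came to 23.8 UMIs per 100 Alb UMIs in HKO and 49.8 in WT. Endothelial-like Trf was at 105% of the hepatocyte-like level for HKO and 103% for WT, so the class values are not independent of each other. Gm20425 overlaps Trf on the same strand, and the authors' counting could split reads between them.

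Trf also moved with the mitochondrial share of a nucleus, the share of its UMIs from mitochondrial genes. In HKO it stood at 403 CPM in hepatocyte-like nuclei under 0.05% and at 2194 CPM in those of at least 0.6%, passing through 512, 713 and 1153 CPM between. In WT it stood at 1972 CPM in the lowest and 5175 CPM in the highest range. Albumin behaved likewise, with 2448 CPM and 4125 CPM in HKO and 4916 CPM and 9055 CPM in WT, whereas Hamp was at 834 CPM and 836 CPM in HKO and 989 CPM and 983 CPM in WT. In the range that both libraries filled best, 0.05% to 0.15%, with 3166 HKO and 1802 WT nuclei, Trf was at 512 CPM in HKO against 2165 CPM in WT. The log2 ratio there was -2.08, against -2.41 over all hepatocyte-like nuclei. This range was chosen after the data were seen, and the part of mitochondrial share in the difference was not tested.

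**Figure D4:**
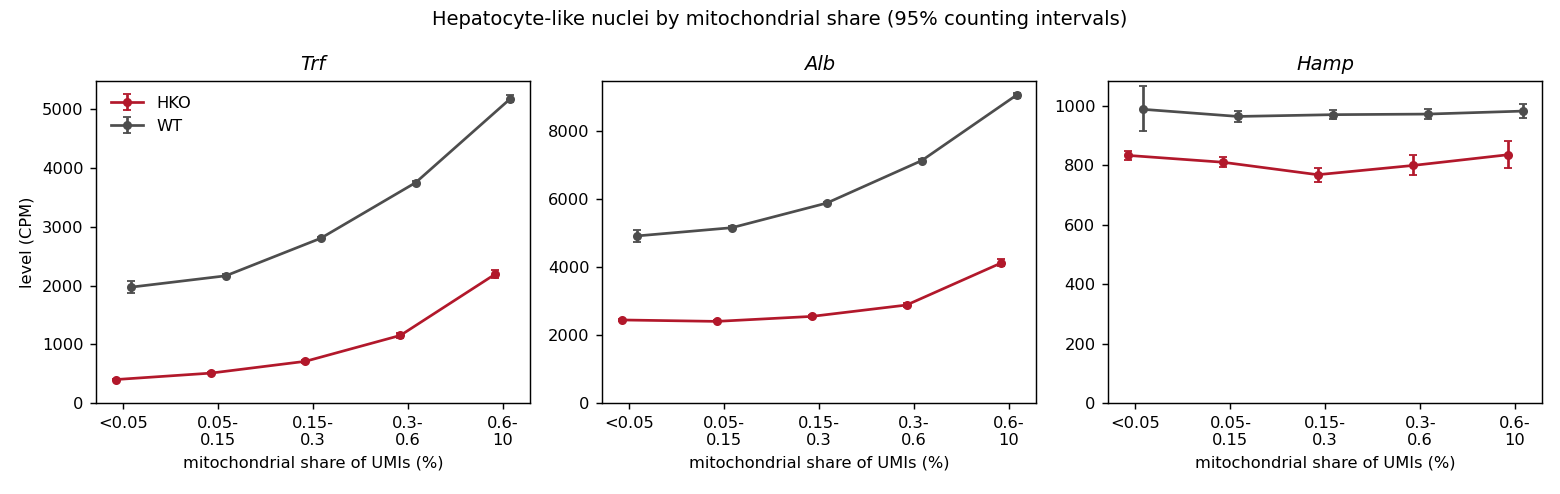
Level in CPM of Trf, Alb and Hamp in hepatocyte-like nuclei by mitochondrial share of UMIs in percent, for HKO (red) and WT (grey), with 95% counting intervals. Trf and Alb are higher at 0.6% or more than under 0.05% in both libraries, the Hamp intervals of those ranges overlap, and Trf is lower in HKO than in WT in each range.

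Slc40a1 (ENSMUSG00000025993, chr1:45908068-45926523, minus strand), the iron exporter through which macrophages return iron from old red cells, was highest in macrophage-like nuclei, at 188 CPM in HKO against 202 CPM in WT. Hepatocyte-like nuclei had 54.7 CPM in HKO against 71.5 CPM in WT, so the macrophage-like level was 3.44 times as high in HKO and 2.82 times in WT. Stellate-like nuclei had 80.5 CPM in HKO against 105 CPM in WT. It was 1 of 6 genes measured to pass a log2 ratio of 1 over hepatocyte-like nuclei, a mark that 6.13% of genes reached in macrophage-like nuclei. With the hepatocyte share subtracted from the macrophage-like level only, that level was 2.60 times the uncorrected hepatocyte-like one for HKO and 1.98 times for WT. The WT value then no longer passed. In stellate-like nuclei 0 of 6 did, against 7.27% of genes. At least 1 UMI occurred in 30.6% of HKO against 34.9% of WT macrophage-like nuclei at 2000 UMIs, while in hepatocyte-like nuclei the share was 10.1% for HKO and 13.1% for WT. Unthinned, the macrophage-like share was 42.0% for HKO and 53.7% for WT.

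In macrophage-like nuclei the libraries' Slc40a1 levels differed by 0.933-fold (0.862 to 1.01). The ratio depended on depth: at 2000 to 3000 UMIs the level was 330 CPM in HKO against 325 CPM in WT, at 4000 to 6000 UMIs 155 CPM in HKO against 266 CPM in WT, and the summed macrophage markers in that deeper range were 1980 CPM in HKO against 2804 CPM in WT. Hepatocyte-like nuclei had less Slc40a1 in HKO (0.765-fold, 0.724 to 0.808), a direction kept in all 10 alternatives. The genes closest to it over the 10 values were Cd5l, Cybb and Ctss (Pearson r 0.994, 0.991 and 0.990).

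Counted together, 6 of the 10 genes reached a mean of 10 CPM in hepatocyte-like nuclei, all but Bmp2, Bmp6, Id1 and Hfe. Of these 1, Trf, was past a log2 ratio of 1 in size, against 7.70% of 8413 genes, and 4.67% of genes were lower by that size. In endothelial-like nuclei Trf was 1 of 8 measured (7.13% of genes), in macrophage-like nuclei 1 of 8 (6.41%) and in stellate-like nuclei 1 of 8 (7.30%). With 1 gene called in a class, the counts do not set the genes apart from this background. The median log2 ratio of the measured genes was -0.08 in hepatocyte-like nuclei, where that of all genes was 0.18.

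**Figure D5:**
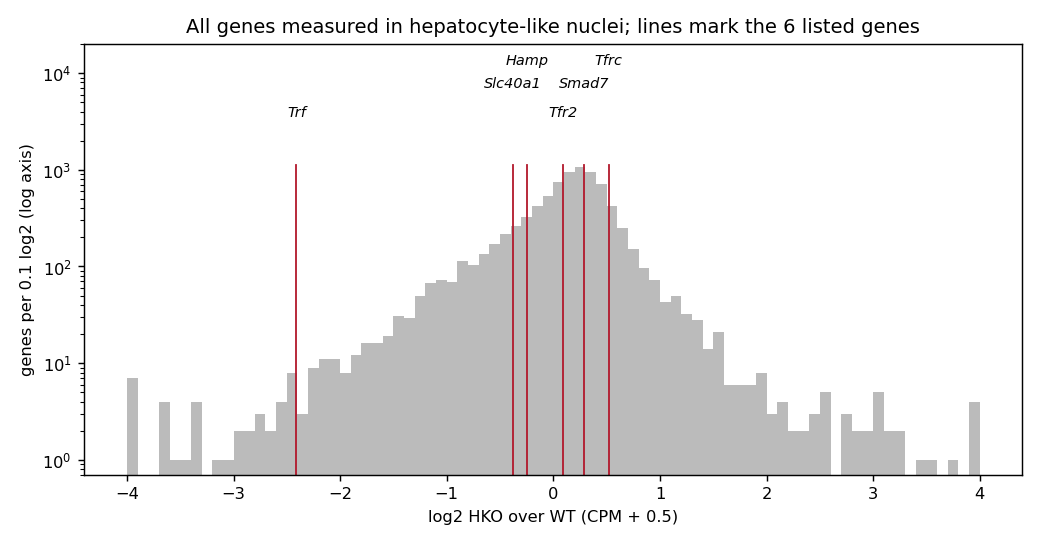
Number of genes per 0.1 of log2 HKO over WT in hepatocyte-like nuclei (log axis, end bars holding all values past 4), with red lines at the 6 listed genes measured there. Trf is in the low tail at -2.41, and the other 5 lie between -0.38 and 0.52.

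Around these genes, the wider pathway was read from lists. Of 20 BMP ligands and antagonists, 7 were measured in hepatocyte-like nuclei, 1 of them higher in HKO by the size of 1 and 3 lower. Over all 8413 genes measured there, 7.70% passed the size, with 255 genes higher and 393 (4.67%) lower by it. The same background applies to every list count in hepatocyte-like nuclei below. For the BMP ligands and antagonists, the count of 4 was 2 at clustering resolution 1. Bmper, a secreted BMP-binding protein, was at 281 CPM in HKO against 52.9 CPM in WT, 5.31-fold. The lower ones were Gdf15, a stress-induced TGF-beta family member (15.8 CPM in HKO, 39.7 CPM in WT), Fst, which encodes the activin-binding follistatin (7.01 CPM in HKO, 15.4 CPM in WT), and the activin subunit Inhba (20.2 CPM in HKO, 41.0 CPM in WT).

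Among receptors, co-receptors and SMADs, 12 were measured in hepatocyte-like nuclei, 1 higher and 0 lower, where 7.70% of all genes passed the size. The higher one was Smad9, a BMP-activated SMAD, at 34.4 CPM in HKO against 12.1 CPM in WT. The BMP receptor Bmpr1a was at 204 CPM in HKO against 187 CPM in WT, the hepcidin co-receptor hemojuvelin, listed as Hfe2, at 47.4 CPM in HKO against 42.9 CPM in WT, and Tmprss6, the protease that cleaves it, at 142 CPM in HKO against 150 CPM in WT. In endothelial-like nuclei Bmpr2 was at 265 CPM in HKO against 181 CPM in WT, and the co-receptor Eng at 224 CPM in HKO against 151 CPM in WT. Neither gene was followed by depth, which moved with Bmp6 and the endothelial markers in that class, and its part was not tested. Of 7 BMP target genes measured in hepatocyte-like nuclei, beside the same 7.70%, 1 was higher, again Smad9, and 2 lower, Id2 (56.9 CPM in HKO, 123 CPM in WT) and Id3. Atoh8, a transcription factor that BMP induces in liver, was at 29.7 CPM in HKO against 19.6 CPM in WT.

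Of 13 measured genes of iron uptake, transport and release 0 were higher and 2 lower, Trf and Steap3, a ferrireductase of transferrin endosomes (0.433-fold). Over all genes measured in hepatocyte-like nuclei, 7.70% passed the size and 4.67% were lower by it. Ceruloplasmin, the plasma ferroxidase encoded by Cp, was at 1975 CPM in HKO against 3824 CPM in WT, and the iron importer Slc39a14 at 1396 CPM in HKO against 1030 CPM in WT. With 2 genes past the size at the main settings, that count ran between 1 and 4 under the alternatives. Of 14 measured genes of iron storage and intracellular iron 0 passed the size in hepatocyte-like nuclei, and 1 did under median ratio and TMM scaling, at clustering resolution 1 and with the unnamed hepatocyte cluster added. Ireb2, which encodes iron regulatory protein 2, was at 132 CPM in HKO against 190 CPM in WT. Fth1, the ferritin heavy chain, was lower by the size in endothelial-like and stellate-like nuclei, 1 of 14 measured in each. Of all genes, 7.13% passed the size in endothelial-like and 7.30% in stellate-like nuclei. Stellate-like Fth1 stood at 1.17 times the hepatocyte-like level in HKO and 1.44 times in WT, so the call is not read as particular to these classes. In stellate-like nuclei it was at 63.1 CPM in HKO against 147 CPM in WT, and Ftl1 at 141 CPM in HKO against 270 CPM in WT.

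Of 11 measured genes of heme and haemoglobin iron recycling 1 was higher in hepatocyte-like nuclei, Alas1, the first enzyme of heme synthesis (1304 CPM in HKO, 362 CPM in WT). The plasma scavengers Hpx and Hp, of heme and haemoglobin, were lower by the size, which 7.70% of all genes measured there passed in either direction. In macrophage-like nuclei 4 of 14 were higher and 2 lower, where 6.41% of 9073 genes passed the size in either direction. Of these, Alas1 was higher and Hpx and Hp lower in all 4 large classes, so their macrophage-like values are not independent. Hmox1, the heme-degrading enzyme, was 3.78-fold higher in HKO (21.2 CPM in WT), Spic, a factor of iron-recycling macrophages, was at 64.7 CPM in HKO against 19.2 CPM in WT, and the haemoglobin receptor Cd163 at 61.2 CPM in HKO against 29.5 CPM in WT. Cd163 is also among the markers that named the class. Under 2000 UMIs lay 756 HKO and 17 WT macrophage-like nuclei, and the part of depth in these values was not tested. Of 6 inputs from interleukin 6 and STAT3 to Hamp measured in hepatocyte-like nuclei, 1 was higher and 1 lower, beside the same 7.70%. The higher one was the receptor chain Il6ra (457 CPM in HKO, 132 CPM in WT), and the lower one the feedback inhibitor Socs3 (0.392-fold). None of 4 haemoglobin genes reached the floor.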

How the data were processed

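The deposited values are raw counts of UMIs per gene and barcode, not normalized, made with Cell Ranger 5.0.0 per the file headers. STAR, GRCm38 and Seurat 3.2.0 stand in the submitters' processing notes without a role. The labels describe total RNA purification although the molecule is nuclear RNA, so how nuclei were isolated remains unstated there. HKO held 14912 barcodes and 61123904 UMIs (median 3286) and WT 14701 barcodes and 64609301 UMIs (median 3430); 70 barcode sequences occur in both. The genes and lists were chosen with earlier results of these data known.

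A barcode was kept if it had 500 genes or more and less than 10% of its UMIs from mitochondrial genes. Doublets were not removed and no caller was run. Nuclei of the 2 libraries were clustered jointly, with no batch term (2000 variable genes, 30 components, 15 neighbours, Leiden resolution 0.5; scanpy 1.11.5, leidenalg 0.10.2). A marker counted for a cluster at 20 CPM or more and at least 2-fold above the other nuclei of the library. A class name needed at least 3 such markers and 0.5 of the class's markers. For a hepatocyte-like cluster, at least 3 hepatocyte markers had to reach 20 CPM and 1.1-fold the level in endothelial-like, macrophage-like and stellate-like nuclei. The 0.5 rule, the 1.1-fold rule and the rule that leaves a cluster led by mitochondrial genes unnamed were set after the data were seen. That cluster held 7 HKO and 508 WT barcodes, and another of mixed B and dendritic markers 270 HKO and 54 WT; both stayed unnamed.

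Counts were summed per library and class with at least 100 nuclei in each and scaled to 1e6. The log2 ratio is HKO over WT after adding 0.5 CPM, folds are plain ratios of CPM, and a gene was measured in a class at a mean of 10 CPM. The size was 1 on the log2 scale. Intervals at 95% are exact Poisson for sums, conditional binomial for folds and Clopper-Pearson for shares; 1 library per group allows no test. Beside the 10 genes, the text names up to 6 members of each list by size of ratio in the class where each is highest, some receptors, and the 3 genes most like a given gene by Pearson r of log2(CPM + 1); some genes that this rule gives are not reported here. The calculation was checked on simulated data. Alternatives covered scaling (median ratio, or edgeR 4.0.16 TMM factors in R 4.3.3), equal weight per nucleus, depth, resolution, floors, size and pseudocount. Coordinates come from GENCODE vM21, which matched 27645 of 27998 genes by identifier, and promoters from RefSeq, GRCm38.p6.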

Additional observations from a re-analysis of the deposited data

Results flagged for a closer look

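Bmp6 appeared in a class that no comparison used, since it has too few WT nuclei. In 122 cholangiocyte-like nuclei of HKO it was at 76.7 CPM, from 24 UMIs, against 3.94 CPM in HKO hepatocyte-like nuclei. The 31 WT cholangiocyte-like nuclei held 3 UMIs, or 28.9 CPM.

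Hfe differed in opposite directions between classes, with intervals that leave out 1. The HKO over WT fold was 1.45 in macrophage-like nuclei, 0.637 in hepatocyte-like nuclei and 0.478 in stellate-like nuclei. The macrophage-like log2 ratio of 0.52 was 0.28 with only nuclei of at least 2000 UMIs. The difference between classes was not tested.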

How the results depend on the processing

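Median ratio and TMM scaling lowered every log2 ratio by 0.18 in hepatocyte-like, 0.16 in endothelial-like, 0.11 in macrophage-like and 0.15 in stellate-like nuclei. Trf in hepatocyte-like nuclei, at -2.41, was -2.59 under median ratio and TMM scaling alike, -2.50 with equal weight per nucleus, -2.44 at 2000 UMIs or more, -2.59 at 2000 to 6000 UMIs, -2.52 at clustering resolution 1 and with the unnamed hepatocyte cluster added, -2.08 at matched mitochondrial share and -2.48 without cycling nuclei. At clustering resolution 1 large clusters with hepatocyte markers stayed unnamed, among them clusters of 3184 and 1035 HKO and 2169 WT barcodes. All hepatocyte-like values at that setting, those of Hamp and Tfr2 included, therefore come from fewer nuclei. Bmp6 in endothelial-like nuclei, at 0.60, was 0.83 with equal weight, 0.17 at 2000 UMIs or more, 0.36 at 2000 to 6000 UMIs and 1.21 at matched mitochondrial share, which left 684 HKO and 108 WT nuclei. Bmp2 there, at 0.16, was 0.38 with equal weight, -0.21 at 2000 UMIs or more and 0.66 at matched share. Slc40a1 in macrophage-like nuclei, at -0.10, was -0.30 at 2000 UMIs or more, -0.35 at 2000 to 6000 UMIs, 0.38 at matched share (605 HKO and 139 WT nuclei) and -0.40 without cycling nuclei. The causes were not tested. The matched ranges of mitochondrial share and depth and the removal of cycling nuclei were chosen after seeing the data.

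Hamp, Trf and Tfrc kept their direction in all 4 large classes under all 10 alternatives, as did Bmp6 in endothelial-like and macrophage-like, Hfe in macrophage-like, Smad7 in hepatocyte-like, and Slc40a1 in hepatocyte-like and endothelial-like nuclei. Tfr2 turned in all 4 classes under both scalings. Scarce genes limit what can be read: Id1 and Hfe rest on few UMIs. No paired analysis was possible because each group has 1 library.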
